A study of Mus musculus with 24 samples.

Results

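The opioid system of the mouse brain rests on 4 receptor genes and 4 genes for the peptide precursors that are cut into their ligands. The 8 genes, among 30270 gene rows of the deposited tables, were selected by their symbols, with no threshold on a measured value: Oprm1, Oprd1, Oprk1 and Oprl1 for the receptors, and Penk, Pdyn, Pnoc and Pomc for the precursors. All 8 were found by symbol in the tables.

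As background, the mu (Oprm1), delta (Oprd1) and kappa (Oprk1) receptors and the nociceptin receptor (Oprl1) are inhibitory receptors that act through Gi and Go proteins, lower adenylyl cyclase activity and open inwardly rectifying potassium channels. Penk encodes the enkephalins, Pdyn the dynorphins, Pnoc nociceptin, and Pomc beta-endorphin. Morphine acts mainly at the mu receptor. In the nucleus accumbens, enkephalin marks medium spiny neurons of the indirect pathway and dynorphin marks those of the direct pathway, and in the ventral tegmental area (VTA) mu receptors on GABA neurons restrain inhibition of the dopamine neurons.

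RNA was sequenced from micropunches of the nucleus accumbens and the VTA of C57BL/6 wild-type mice and of mice lacking the vitamin D receptor (Vdr-/-). Mice of each genotype received PBS or 5 mg/kg morphine by intraperitoneal injection, and tissue was taken 90 min later. The study's methods also give an earlier time for saline controls in their account of tissue collection, so the time of the PBS mice is not certain. Each of the 8 groups held 3 libraries, and the 12 mice each gave 1 library from each region, so that there were 24 libraries. In the tables of the morphine comparisons in the VTA the PBS groups held 2 libraries each, without wild-type mouse 3 and Vdr-/- mouse 8. The Vdr-/- mice were raised on a calcium- and lactose-enriched diet, which limits them as a model because the diet of the wild-type mice was not stated. The age and sex of the mice were not given in the sources used here. The study asked whether opioid signalling differs in vitamin D receptor deficiency, and the comparisons below give the values of the opioid genes for genotype, injection and region.

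Libraries held 9328726 to 30184426 reads on genes. Vdr itself was counted at 0 to 17 reads, with a median of 5.5 in wild-type and 6 in Vdr-/- libraries, so at this depth it did not check the genotype labels. The accumbens punches held medium spiny neuron markers at 39854 to 82409 normalised reads (sum of 8 genes), against 4486 to 5419 in the VTA. A list of 10 dopamine neuron markers summed to 3676 to 48340 normalised reads in the VTA against 977 to 1730 in the accumbens. One accumbens library, wild-type PBS mouse 2, stood apart: its ratio to the other accumbens libraries fell with exon length (Spearman rho = -0.43 across 12714 genes, against -0.13 to 0.21 in the other 11), and Oprm1 was counted at 11 reads in it. In this library Penk lay 0.83 and Pdyn 0.88 above the median of the other accumbens libraries on the log2 scale, and Pnoc 1.10 below. The accumbens levels and differences of these genes below include it unless stated. In Vdr-/- mice rho was -0.13, 0.0002 and -0.12 after PBS and 0.14, 0.21 and 0.018 after morphine, without overlap. In wild-type mice it was 0.036, 0.0996 and 0.19 after morphine, and 0.046 and -0.039 in PBS mice 1 and 3. The part of exon length in the morphine differences was not tested, and rho was not computed for the VTA.

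The sequences just upstream of start sites of Pdyn and Oprm1 are printed here, because these are the members whose reads rose after morphine in the wild-type VTA. RefSeq (GRCm38.p6) held promoter windows for 5 of the 8 members, and each sequence below is the 250 bases before an annotated start, in lower case, free of annotated exons of its own gene. The Pdyn window lies at chr2:129699939-129700188 on the minus strand. The Oprm1 window lies at chr10:6788320-6788569 on the plus strand, inside an intron of the longest Oprm1 transcripts and before the start of the shorter ones.
Pdyn upstream: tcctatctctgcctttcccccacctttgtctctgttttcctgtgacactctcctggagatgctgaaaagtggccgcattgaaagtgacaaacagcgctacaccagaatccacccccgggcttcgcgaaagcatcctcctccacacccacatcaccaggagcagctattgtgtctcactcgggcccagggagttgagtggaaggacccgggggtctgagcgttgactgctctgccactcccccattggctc
Oprm1 upstream: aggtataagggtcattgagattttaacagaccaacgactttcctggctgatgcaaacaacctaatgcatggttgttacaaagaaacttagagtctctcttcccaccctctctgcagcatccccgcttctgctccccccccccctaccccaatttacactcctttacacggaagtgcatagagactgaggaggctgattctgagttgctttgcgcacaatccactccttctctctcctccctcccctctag
Both strands were searched for the cyclic AMP response element TGACGTCA, its shorter form CGTCA (which lies within the full element), the AP-1 element TGANTCA and the vitamin D receptor's direct repeat with a spacer of 3 bases (DR3). None of the 10 member windows held these letters, so no base above is in capitals. Over all 32851 promoters the shorter form stood in 17.8%, the AP-1 element in 6.75% and the full cyclic AMP element in 1.55%, and the vitamin D receptor element was found in 2 promoters. The Pdyn window was 57.2% G and C and the Oprm1 window 50%, against a median of 52.4% over all promoters.

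Levels were compared between genes as RPKM, the reads on a gene divided by its exon length in kb and by the reads on all genes of the library. In the accumbens Penk was the most abundant member in all 12 libraries, with a median RPKM of 384 (range 260.1 to 649.6), which lay above 99.9% of the genes detected there. Pdyn followed with a median of 44.8 (range 37.8 to 81.4), then Oprl1 at 11.3 and Oprd1 at 6.58. The ranges of these 4 genes did not overlap. The ranges of Oprd1 and Oprk1 (median 5.50), of Oprk1 and Pnoc (2.09), and of Pnoc and Oprm1 (1.76) overlapped over the 12 libraries, PBS and morphine together. Within a library Oprd1 was above Oprk1 in 11 of 12, Oprk1 above Pnoc in 9 and Pnoc above Oprm1 in 9. Pomc was lowest, with a median of 0.252 and 1 to 12 reads per library.

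In the VTA the order was different. Penk (median 30.0 RPKM) and Oprl1 (21.7) led, with overlapping ranges although Penk was above Oprl1 in each of the 12 libraries. Pnoc followed with a median of 6.06, and Oprk1 (2.94), Oprd1 (2.45) and Pdyn (2.36) could not be ordered beyond their spread. Pdyn had the largest ratio of highest to lowest level among the members in the VTA, from 0.450 to 13.7. Oprm1 had a median of 1.30 and Pomc one of 0.444, with 4 to 20 reads per library.

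The make-up of receptor and precursor transcripts differed between the regions. Oprl1 made up a median of 76.6% of the per-length reads of the 4 receptors in the VTA (range 73.4% to 78.9%) and 45.4% in the accumbens (range 35.4% to 52.4%). Oprd1 made up 26.5% in the accumbens and 8.72% in the VTA, and Oprm1 7.18% and 4.73%. Of the precursors, Penk took a median of 87.9% of per-length reads in the accumbens and 76.3% in the VTA, whereas Pnoc took 0.472% and 14.3%.

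**Figure D1:**
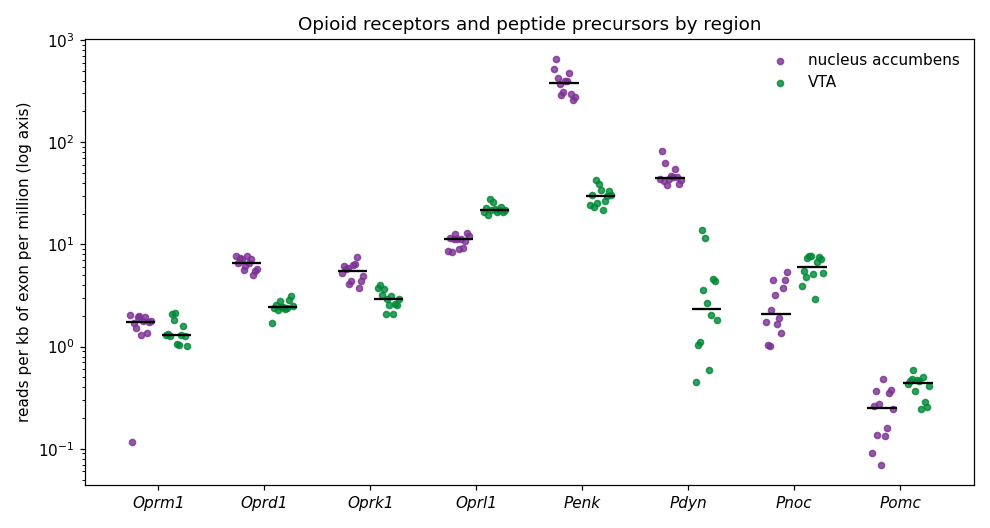
Each point is 1 library, with RPKM on a log axis for the 8 genes in the nucleus accumbens (purple) and the VTA (green), and black lines are medians over 12 libraries. Penk was highest in both regions (medians 384 and 30.0), Pdyn was spread from 0.450 to 13.7 in the VTA, and the single low Oprm1 point in the accumbens is the library with 11 reads.

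The regions were compared within mice, and the differences are averages over the groups of genotype and injection. Of the 7 members above the filter on low values (a mean of at least 10 normalised reads), 6 passed the threshold of an adjusted p under 0.05 (limma, Benjamini-Hochberg over 16147 genes), against 72.9% of all genes tested. Higher in the accumbens were 4 members (35.1% of all genes) and lower were 2 (37.8% of all genes), so the number of members called was near that of genes in general, and their differences are given for their size. All 4 members that were higher in the accumbens were higher there in 12 of 12 mice.

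Among the precursors, Pdyn was 20.5-fold higher in the accumbens (log2 difference 4.36, SE 0.20, limma adjusted p = 9.59e-10) and Penk 13.3-fold higher (3.73, SE 0.06, adjusted p = 2.1e-13). By group the Pdyn difference was 6.06 in wild-type PBS, 5.12 in Vdr-/- PBS, 3.72 in Vdr-/- morphine and 2.54 in wild-type morphine mice. For Penk it was 4.42, 4.06, 3.21 and 3.24 in the same order of groups. Pnoc went the other way, with 2.37-fold more in the VTA (log2 difference -1.24, SE 0.15, adjusted p = 9.28e-06) and 11 of 12 mice in that direction. In the same order of groups the Pnoc difference was -1.83, -1.42, -0.51 (limma adjusted p = 0.198) and -1.21. Pomc, with fewer than 10 normalised reads on average, was not tested. Its log2 difference was -0.71, and 9 of 12 mice had more in the VTA. A list of 6 pituitary markers, which include the corticotroph factor Tbx19, summed to 0 to 7 normalised reads in the accumbens, where Gh, Prl and Tshb were at 0, and 1 to 33 in the VTA.

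Among the receptors, Oprd1 was 2.73-fold higher in the accumbens (log2 difference 1.45, SE 0.07, limma adjusted p = 2.85e-09) and Oprk1 1.91-fold (0.93, SE 0.07, adjusted p = 5.02e-08). Oprl1 was 2.00-fold higher in the VTA in 12 of 12 mice (log2 difference -1.002, SE 0.05, adjusted p = 3.64e-09). Oprm1 gave a log2 difference of 0.06 (95% interval -0.56 to 0.67, adjusted p = 0.861). Without wild-type PBS mouse 2 the Oprm1 difference was 0.39 and passed the threshold, so that 7 members were called. The exact sign-flip test over 12 mice gave p = 0.000488, the smallest it can give, for Oprd1, Oprk1, Oprl1, Penk and Pdyn.

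Several opioid genes differed after morphine in the accumbens of Vdr-/- mice. Of 7 members tested, 5 passed the threshold, against 19.1% of all genes in that comparison. Lower after morphine were 4 members (9.13% of all genes were lower) and higher was 1 (9.94% of all genes were higher). The median log2 difference of the 7 members was -0.24, against -0.01 over all genes.

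Penk, the enkephalin precursor, was counted at 10409.9, 10390.2 and 12418 normalised reads in the 3 Vdr-/- PBS mice and at 7526, 6606 and 7029 after morphine. Every morphine library was below every PBS library. The log2 difference was -0.65 (SE 0.07, 95% interval -0.81 to -0.49, limma adjusted p = 0.000315).

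Pdyn, the dynorphin precursor, was counted at 2161, 2096 and 2508 after PBS and at 2051, 1751 and 1909 after morphine. The groups did not overlap but lay close together, and the log2 difference was small (-0.24, SE 0.07, limma adjusted p = 0.0407). It did not pass without the filter on low values (adjusted p = 0.0512), or when Vdr-/- PBS mouse 9 or morphine mouse 2.1 or 2.2 was left out, when the log2 difference was as small as -0.16. Over leaving out each library, 4 to 6 members were called, with Oprl1 (0.34) the addition without Vdr-/- PBS mouse 8.

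Pnoc, the nociceptin precursor, was counted at 57.7, 64.6 and 46.4 after PBS and at 126, 149 and 179 after morphine in Vdr-/- mice. It was the member with a higher value after morphine, by 2.66-fold (log2 difference 1.41, SE 0.17, 95% interval 1.05 to 1.77, limma adjusted p = 0.000343). These are low counts for a gene of the accumbens, 55 to 174 reads per library in these 6 libraries.

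The kappa receptor Oprk1 was counted at 928, 939 and 1109 in the Vdr-/- PBS mice and at 537, 619 and 695 after morphine. The groups did not overlap (log2 difference -0.69, SE 0.09, limma adjusted p = 0.000768). The delta receptor Oprd1 went from 493, 416 and 461 to 310.2, 346 and 359, again without overlap (-0.43, SE 0.08, adjusted p = 0.00525). Oprl1 differed by 0.25 (adjusted p = 0.0696) with overlapping groups. Oprm1 was counted at 169, 226 and 251 after PBS and at 170.5, 217 and 223 after morphine, a difference of -0.07 with a 95% interval of -0.39 to 0.25. For single genes the exact permutation test of 3 against 3 libraries cannot go below p = 0.1, and it gave that value for each of the 5 members that passed.

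In wild-type mice none of the 7 members tested passed with limma in the accumbens, where 0.813% of all genes did. Penk was counted at 13427, 16018 and 11124 after PBS and at 9187, 7193 and 7909 after morphine, and Pnoc at 59.0, 33.7 and 34.9 against 74.7, 146 and 106. For both genes the wild-type groups did not overlap. The log2 differences were -0.73 for Penk (95% interval -1.09 to -0.37, limma adjusted p = 0.0804) and 1.33 for Pnoc (0.63 to 2.03, adjusted p = 0.103), and both passed with DESeq2 (adjusted p = 0.000646 and 0.00415). Oprk1 (-0.29), Oprd1 (-0.23) and Pdyn (-0.19) had overlapping groups.

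Oprm1 in the wild-type PBS accumbens was counted at 255, 14.3 and 215 normalised reads, so its log2 difference of 1.24 after morphine rested on the low library of mouse 2. Without that library the difference was -0.07. Without it 2 members passed, Penk (-0.60) and Oprl1 (0.40).

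The morphine response of the accumbens was compared between genotypes as an interaction. None of the 7 members passed, nor did any of the 15786 genes (0% called by limma, with 916 at an unadjusted p under 0.05, and 0 called by edgeR and by DESeq2). The interaction was 0.08 for Penk (95% interval -0.32 to 0.48) and 0.08 for Pnoc (-0.73 to 0.89), and -0.40 for Oprk1 (-0.80 to 0.01). The larger number of members called in Vdr-/- mice is thus not a tested difference between the genotypes.

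Markers of medium spiny neurons, which make Penk and Pdyn in this region, moved with the same injection. Their sum was 65363 to 82409 normalised reads in wild-type PBS and 45471 to 54159 in wild-type morphine libraries, and 60747 to 71061 against 39854 to 44719 in Vdr-/-. In Vdr-/- mice 8 of 8 markers passed as lower after morphine, with a median log2 difference of -0.58, and in wild-type mice 3 of 8, with a median of -0.55. Of 4 indirect pathway markers, 3 were lower in Vdr-/- mice (median -0.66) and 2 in wild-type mice (median -0.76), and of 6 direct pathway markers 4 were lower and 1 higher in Vdr-/- mice (median -0.38) and none passed in wild-type mice (median -0.42). Genes listed as markers of other cell types moved as well in the Vdr-/- accumbens: 5 of 7 oligodendrocyte markers and 4 of 6 microglia markers were lower (median log2 differences -0.31 and -0.33), and 4 of 6 astrocyte markers and 3 of 3 tested arcuate POMC neuron markers were higher (0.26 and 0.83). The wild-type medians of these 4 lists were -0.31, -0.49, 0.26 and 0.81, with 1 microglia marker lower and 1 astrocyte marker higher. Pomc itself was at 3 to 12 reads in the Vdr-/- accumbens libraries and was not tested, so it does not bear out the name of the arcuate list in this region. Each of the remaining marker lists had at most 2 markers called in either genotype. None of the medium spiny neuron markers was at 0. In bulk tissue, fewer cells of a type, less RNA per cell and a difference in the tissue punched cannot be told apart. The part of the markers in the Penk, Pdyn and receptor differences was not tested.

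**Figure D2:**
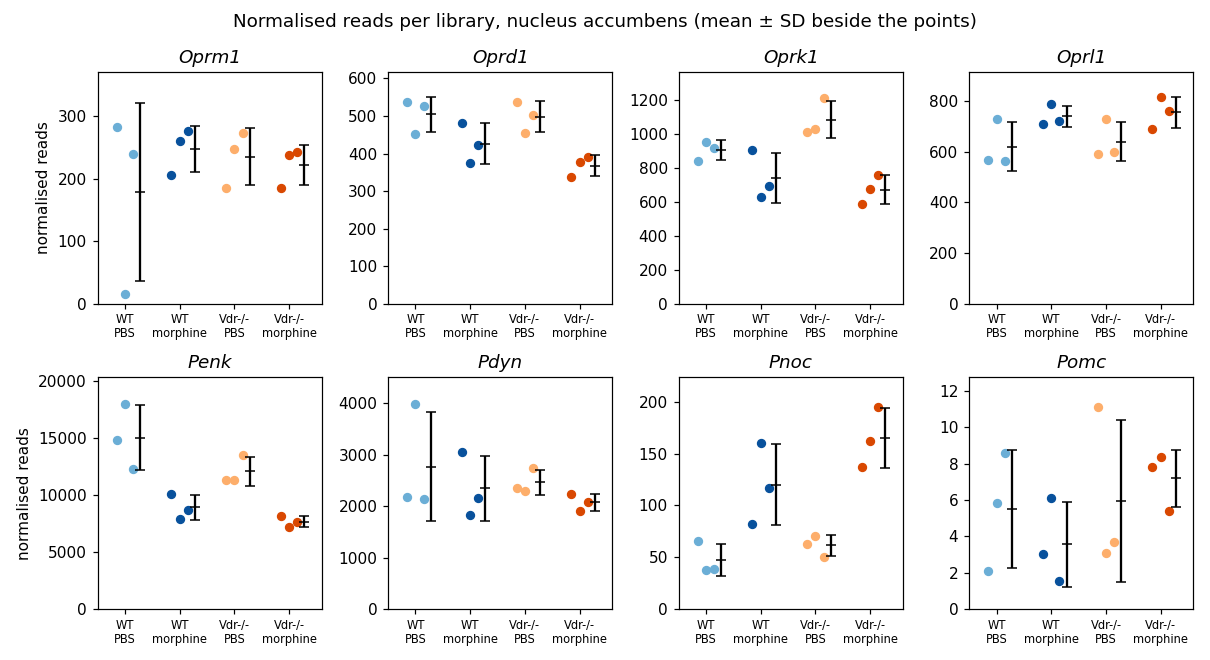
Normalised reads of the 8 genes in each accumbens library (points), with the mean and SD of 3 libraries beside them, for wild-type (WT) and Vdr-/- mice after PBS or morphine. After morphine Penk lay lower and Pnoc higher than after PBS in both genotypes without overlap, and the low Oprm1 point is wild-type PBS mouse 2.

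In the wild-type VTA 2 of 8 members tested passed after morphine, both higher, against 3.65% of all genes (1.77% of all genes were higher). Pdyn was counted at 24.1 and 55.8 normalised reads in the PBS mice and at 694, 192 and 610.3 in the morphine mice. The lowest morphine library lay above the highest PBS library, and the morphine libraries differed widely among themselves. The fold change was 11.5 (log2 difference 3.53, SE 0.60, 95% interval 2.10 to 4.95, limma adjusted p = 0.0329).

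The mu receptor Oprm1 was counted at 192 and 196 in the wild-type PBS VTA and at 291, 269 and 312 after morphine. The groups did not overlap, and the log2 difference was 0.58 (SE 0.11, 95% interval 0.33 to 0.83, limma adjusted p = 0.0402). Oprm1 overlaps Ipcef1 on the opposite strand (median 503.5 reads). It was not stated whether the counting used strand, without which reads of the shared part cannot be told apart. Ipcef1 differed by 0.20 in that comparison (adjusted p = 0.326). It rose by 0.77 after morphine in the Vdr-/- VTA (limma adjusted p = 0.0156). Between regions it was higher in the accumbens by 1.90 on the log2 scale (limma adjusted p = 1.15e-09). The same limit thus holds for the Oprm1 values of those comparisons.

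Pnoc was counted at 155 and 217 after PBS and at 282, 305 and 301 after morphine in the wild-type VTA, without overlap. Its log2 difference of 0.69 missed the threshold with limma (adjusted p = 0.0635), and it passed with DESeq2 (0.0108) and with all 3 PBS libraries (0.0189), which made 3 members called. Oprk1 was counted at 637 and 677 after PBS and at 584, 353 and 495 after morphine (log2 difference -0.49, 95% interval -0.96 to -0.02, adjusted p = 0.194 with limma). These groups did not overlap, but they lacked wild-type PBS mouse 3. Scaled over all 24 libraries, Oprk1 was 568, 608 and 478 after PBS and 529, 320 and 452 after morphine, with overlap. With all 3 PBS libraries the difference was -0.38 (limma adjusted p = 0.187). In the comparison without mouse 3, Penk gave 0.33 (-0.17 to 0.83), Oprd1 0.28 and Oprl1 0.18, with overlap. Pomc was counted at 10.5 and 11.2 after PBS and at 13.6, 8.97 and 11.5 after morphine.

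The calls in the wild-type VTA depended on single libraries. Leaving out morphine mouse 1.1 gave 5 members called, leaving out 1.0 gave 1 and leaving out 1.2 gave 0. Leaving out a PBS library left only 1 in that group, so those calls are not given. Over leaving out each library, PBS or morphine, the log2 difference stayed between 2.94 and 4.12 for Pdyn and between 0.53 and 0.63 for Oprm1. With all 3 PBS libraries Oprm1 and Pdyn passed with limma (adjusted p = 0.00895 and 0.0106). Both also passed with DESeq2 on 3 against 2 libraries (adjusted p = 0.00704 and 0.000269). With 3 against 2 libraries the exact permutation test cannot go below p = 0.1, which it gave for Pdyn, Oprm1 and Pnoc.

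In the Vdr-/- VTA none of the 7 members tested passed after morphine, where 10% of all genes did. Pdyn was counted at 145 and 108 after PBS and at 245, 234 and 97.3 after morphine, with overlap (log2 difference 0.50, 95% interval -0.40 to 1.40, limma adjusted p = 0.424). With all 3 PBS libraries, which adds mouse 8, the difference was 1.15 (limma adjusted p = 0.233). Oprm1 was counted at 160.0 and 193 after PBS and at 238, 189 and 150.4 after morphine (0.11, 95% interval -0.35 to 0.56). The interaction of genotype and morphine in the VTA was -2.15 for Pdyn (95% interval -4.08 to -0.22, limma adjusted p = 0.425, and -3.02 with adjusted p = 0.201 without the PBS libraries that the deposited morphine tables lack) and -0.43 for Oprm1 (-0.88 to 0.02, adjusted p = 0.485). None of the 7 members and 0% of 16240 genes passed by limma (1739 genes at an unadjusted p under 0.05), and edgeR called 0 and DESeq2 51 genes, none of them a member.

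**Figure D3:**
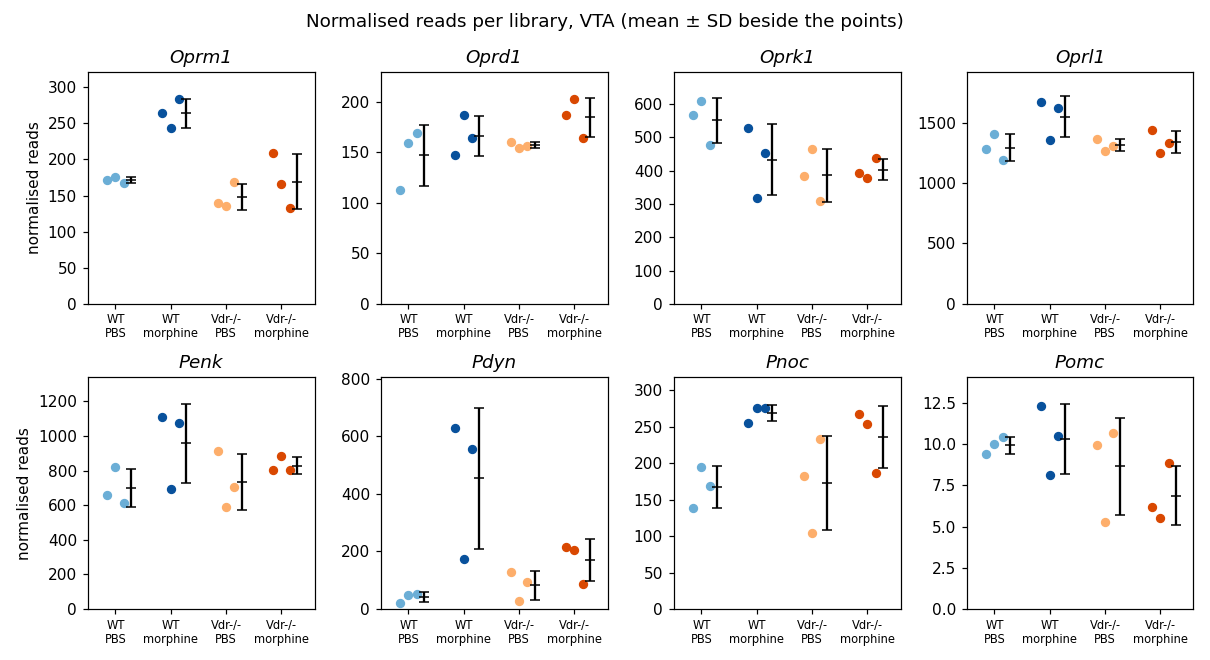
Normalised reads of the 8 genes in each VTA library (points), with the mean and SD of 3 libraries beside them, in the same groups, all scaled together. The 3 wild-type morphine libraries lay above the 3 wild-type PBS libraries for Oprm1, Pdyn and Pnoc, while the groups of Vdr-/- mice overlapped for these genes.

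Cell type markers differed widely between the VTA punches. The sums here cover all 3 libraries of a group, whereas the calls and medians lack wild-type PBS mouse 3 and Vdr-/- PBS mouse 8. Those 2 libraries had dopamine neuron sums of 38468 and 36654, and hypothalamic and mammillary sums of 271 and 337. The 10 dopamine neuron markers summed to 38468 to 48340 normalised reads in wild-type PBS and 3676 to 9557 in wild-type morphine libraries, and 8 of 10 passed as lower (median log2 difference -2.98). In Vdr-/- mice the sums were 8706 to 36654 after PBS and 9993 to 19553 after morphine, where 1 of 10 passed, as higher. Markers of the neighbouring hypothalamus and mammillary region, a list of 8 genes including Foxb1 and Pmch, summed to 271 to 1895 in wild-type PBS, 3121 to 16578 in wild-type morphine, 337 to 5357 in Vdr-/- PBS and 1731 to 4012 in Vdr-/- morphine libraries. Of the 5 of these markers tested, none passed after morphine in wild-type mice (median log2 difference 2.25), and 2 passed as higher in Vdr-/- mice (median 0.61). Avp was the 1 marker of this list at 0 in the wild-type PBS group. In wild-type mice 4 of 6 microglia markers and 3 of 5 interpeduncular and habenular markers were also lower after morphine (medians -0.75 and -0.96). In Vdr-/- mice 7 of 7 oligodendrocyte markers were lower (median -0.76), where the wild-type median was -0.81 with none called. Each of the remaining marker lists had at most 1 marker called after morphine in the VTA, but some of their sums differed. Midbrain GABA neuron markers summed to 675 to 824 in wild-type PBS and 196 to 374 in wild-type morphine libraries (1 of 5 lower, median -0.85). In Vdr-/- mice they summed to 289 to 745 after PBS and 351 to 392 after morphine. Thalamus markers summed to 3780 to 5261 in wild-type PBS and 4153 to 14525 in wild-type morphine libraries.

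Pdyn stood beside these markers library by library. In wild-type morphine mice 1.0, 1.1 and 1.2 the hypothalamic and mammillary sum was 12822, 3121 and 16578, and Pdyn, scaled over all 24 libraries, was 629, 173 and 557. In Vdr-/- PBS mice 7, 8 and 9 the sum was 5357, 337 and 3902 and Pdyn was 127, 27.7 and 94.2. In Vdr-/- morphine mice 2.0, 2.1 and 2.2 the sum was 4012, 3573 and 1731 and Pdyn was 216, 206 and 85.6. In these 3 groups the library with the lowest sum had the lowest Pdyn value. Wild-type PBS mice 1, 2 and 3 did not follow this, with sums of 546, 1895 and 271 and Pdyn at 21.5, 50.1 and 52.9, so that the library with the lowest sum had the highest Pdyn value. The part of all these markers in the Pdyn and Oprm1 differences was not tested, and an injection effect and a difference in the tissue punched cannot be told apart in the VTA.

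**Figure D4:**
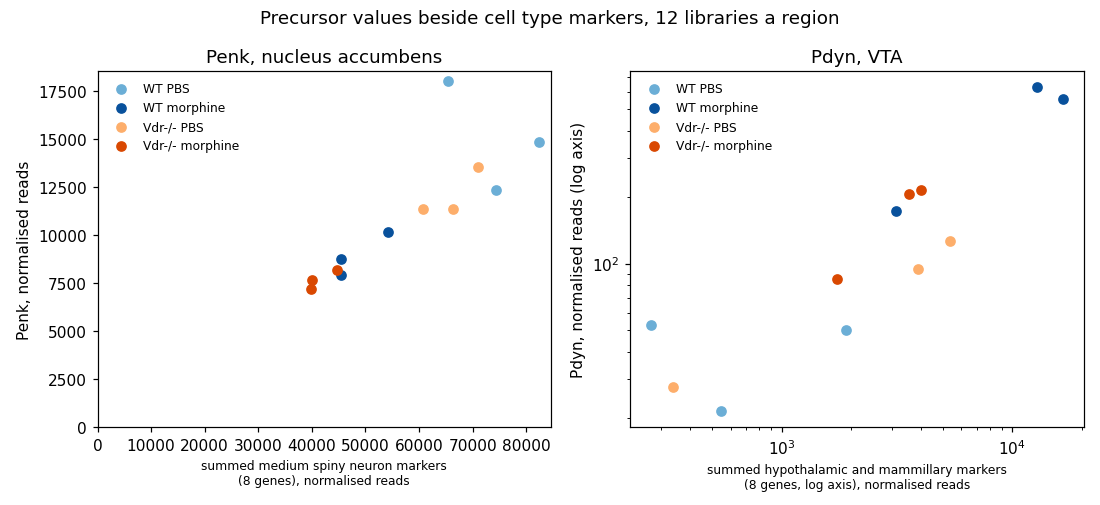
Left, Penk against the summed medium spiny neuron markers in 12 accumbens libraries on linear axes, and right, Pdyn against the summed hypothalamic and mammillary markers in 12 VTA libraries on log axes, both in normalised reads and coloured by group. Morphine libraries lay at lower marker sums in the accumbens, and the 2 VTA libraries with sums of 12822 and 16578 had the highest Pdyn values.

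Morphine differences were then compared between the regions in the same mice. In wild-type mice 2 of 7 members passed this test, against 6.69% of all genes. The Penk difference was lower in the accumbens than in the VTA by 1.18 on the log2 scale (-1.18, SE 0.17, limma adjusted p = 0.00349), with -0.73 in the accumbens and 0.33 in the VTA in the separate tables. The Pdyn difference was -3.52 (SE 0.56, adjusted p = 0.00561), with -0.19 in the accumbens and 3.53 in the VTA. In Vdr-/- mice no member passed (0.545% of all genes did), and the values were -0.85 for Penk (adjusted p = 0.0515), -1.40 for Pdyn (0.282) and -0.77 for Oprk1 (0.101).

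Genotype was compared within each injection. In the accumbens no member of 7 passed after PBS (0.069% of all genes) or after morphine (0.192%). After PBS Oprk1 was counted at 841, 934 and 919 in wild-type and 1016, 1029 and 1212 in Vdr-/- mice without overlap, a log2 difference of 0.27 (95% interval 0.05 to 0.49, limma adjusted p = 0.485). After morphine Penk differed by -0.21 (-0.39 to -0.03, adjusted p = 0.599) and Pnoc by 0.49 (0.02 to 0.96, adjusted p = 0.617).

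In the VTA no member passed by genotype after PBS (8 tested, 0.39% of all genes called) or after morphine (7 tested, 0.0624% called). After PBS Oprm1 was counted at 211, 215 and 204 in wild-type and 171, 166 and 207 in Vdr-/- mice, with overlap, and its log2 difference was -0.22 (95% interval -0.47 to 0.03, limma adjusted p = 0.402). After morphine it was counted at 262, 242 and 281 in wild-type and 208, 166 and 132 in Vdr-/- mice, without overlap (-0.65, 95% interval -1.03 to -0.27, adjusted p = 0.416, and 0.1 with DESeq2). Oprk1 after PBS was counted at 699, 745 and 584 against 472, 567 and 377, without overlap (-0.53, -0.88 to -0.18, adjusted p = 0.198). It passed with DESeq2 (adjusted p = 0.0385) and when Vdr-/- mouse 8 was left out (-0.67). The dopamine neuron sums of Vdr-/- PBS mice 7, 8 and 9 were 22851, 36654 and 8706, in the order of their Oprk1 values. Mouse 8 was thus the Vdr-/- PBS library nearest to the wild-type sums. Wild-type PBS mice 1, 2 and 3, with sums of 48340, 40191 and 38468, did not follow that order. The part of these markers in the Oprk1 difference was not tested. Pdyn after morphine differed by -1.32 (-2.55 to -0.10, adjusted p = 0.549), with 623, 172 and 551 in wild-type and 215, 205 and 85.3 in Vdr-/- mice. The dopamine neuron sums and the hypothalamic and mammillary sums given above differed between these groups too.

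**Figure D5:**
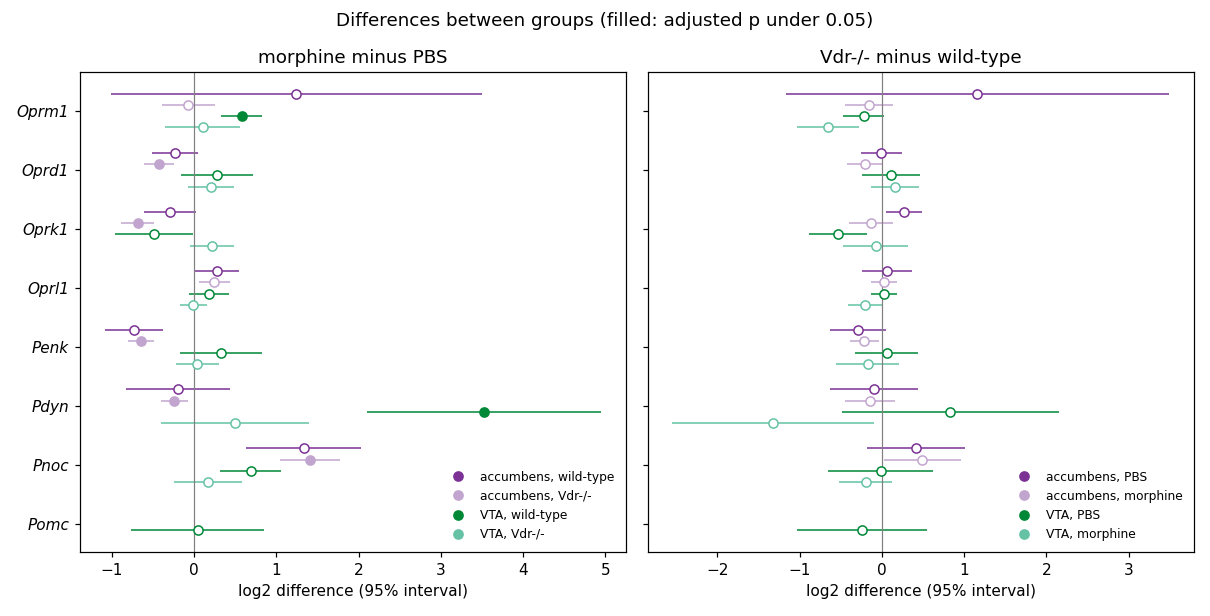
Log2 differences with 95% intervals for each member tested, morphine minus PBS on the left and Vdr-/- minus wild-type on the right, in the 2 regions. Filled points passed the threshold: 5 members in the Vdr-/- accumbens and 2 in the wild-type VTA after morphine, and none by genotype.

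The genes around the receptors and peptides were read from 5 lists with 46 entries. Their counts stand beside shares of all genes called after morphine of 19.1% in the Vdr-/- accumbens (9.94% higher, 9.13% lower), 3.65% in the wild-type VTA and 10% in the Vdr-/- VTA. Nothing particular to a list is read from its count. None of the entries passed by genotype in either region or in the wild-type accumbens after morphine. Of 8 peptide processing enzymes, 3 rose and 1 fell after morphine in the Vdr-/- accumbens, with Pcsk1, a prohormone convertase, at 0.51 (log2 difference, limma adjusted p = 0.0109) and Pcsk2, the other such convertase, at -0.41 (0.00131). The median of that list was -0.01, as over all genes. In the VTA 1 rose in wild-type mice (Pcsk2, 0.57, adjusted p = 0.0202) and 2 rose in Vdr-/- mice (Pcsk1, 0.55, and Pam, the amidating enzyme, 0.44).

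Of 8 peptide breakdown enzymes 1 rose and 1 fell in the Vdr-/- accumbens after morphine. Mme, which encodes the enkephalin-degrading neprilysin, fell by 0.56 on the log2 scale (limma adjusted p = 0.000451), and Ece2 rose by 0.34 (0.00845). Lnpep fell in the VTA of both genotypes, by 0.71 in wild-type and by 0.45 in Vdr-/- mice. Of 12 G protein and channel genes, Gnao1 fell by 0.19 and Gnai2 rose by 0.18 in the Vdr-/- accumbens. Kcnj9 (0.75) and Kcnj6 (-0.69), both potassium channel subunits, passed in the wild-type VTA, and Kcnj6 (0.54) in the Vdr-/- VTA. In the same comparisons 8 of 10 dopamine neuron markers were lower in wild-type mice and 1 was higher in Vdr-/- mice. The part of these markers in the VTA values of the lists was not tested.

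Of 13 desensitization and trafficking genes, 3 rose and 3 fell in the Vdr-/- accumbens. Rgs9 (-0.53, limma adjusted p = 0.000327) and Rgs4 (-0.45, adjusted p = 0.000519), which speed G protein deactivation, differed most, and Rgs9 also stands in the medium spiny neuron marker list. In the VTA Rgs4 passed in wild-type mice (1.04), and Rgs9 (0.53) and Gprasp1 (0.29) in Vdr-/- mice. Of 5 regulators of opioid gene transcription, Fosb, an activity-induced factor, rose in the Vdr-/- accumbens (0.98, adjusted p = 0.000688), the wild-type VTA (1.16, adjusted p = 0.033) and the Vdr-/- VTA (1.04, adjusted p = 0.0164). Kcnip3, which encodes the prodynorphin repressor DREAM, fell by 0.30 in the Vdr-/- accumbens (adjusted p = 0.0241), and Creb1 rose by 0.35 in the Vdr-/- VTA (adjusted p = 0.017).

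Between regions, most entries of these lists passed, as did most genes. The 2 largest differences of each list were Rgs9 (3.57, accumbens minus VTA on the log2 scale) and Rgs20 (1.40), Fosb (2.19) and Kcnip3 (1.09), Ace (-1.62) and Ece2 (-1.09), Kcnj5 (-1.29) and Kcnj6 (-0.54), and Pcsk1 (-0.83) and Pcsk2 (0.66). In wild-type mice the morphine difference depended on the region for Pcsk2 (-0.96), Scg5 (-0.30), Kcnj9 (-0.89), Rgs4 (-1.68) and Rgs9 (-1.36), and in Vdr-/- mice for Pcsk2 (-0.65), Rgs9 (-1.11) and Rgs4 (-0.93).

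Genes whose pattern was most like a member were found within each region over 12 libraries by Pearson's r of log2 normalised reads, as a description without a test, since the libraries share injection, depth and tissue make-up. In the accumbens Penk was followed most closely by Gpr6 (r = 0.99), an indirect pathway marker, Gng7 (0.99) and Phactr1 (0.98). Pdyn was followed by Tac1 (0.96), a direct pathway marker, Syndig1 (0.93) and Cpsf1 (0.93), and Pnoc by Tug1 (0.98), Ret (0.97) and Gpx3 (0.97). Without wild-type PBS mouse 2 the values for Pdyn were 0.95, 0.85 and 0.81. For the receptors these were Tbc1d8 (0.93), Tomm70a (0.91) and Nedd4l (0.90) for Oprd1, Sra1 (0.92), Arel1 (0.92) and Tkfc (0.91) for Oprk1, and Wdr6 (0.95), Grin2d (0.95) and Calb2 (0.94) for Oprl1. The values for Oprm1, led by ENSMUSG00000109836.1 and Usp9x (both 0.99), with Dcc (0.99), rested on the low library and were 0.77, 0.71 and 0.64 over the other 11.

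In the VTA the closest genes were Stk26 (0.97), Slc7a14 (0.97) and Nptx2 (0.96) for Pdyn, 9530068E07Rik (0.97), Etnk2 (0.94) and Resp18 (0.93) for Penk, and Cntn3 (0.94), Zap70 (0.94) and Gabpb1 (0.93) for Pnoc. They were Akap6 (0.98), Huwe1 (0.96) and Suco (0.96) for Oprm1, Top1mt (0.91), Nol9 (0.87) and Actr3b (0.86) for Oprd1, Tmem255a (0.93), Parm1 (0.90) and Rragc (0.90) for Oprk1, and Slc1a6, Ass1 and Tspyl2 (0.96, 0.95 and 0.95) for Oprl1. Among the members themselves, Penk and Pnoc ran opposite in the accumbens (r = -0.92), and Penk and Pdyn ran together there (0.70) and in the VTA (0.84). Without wild-type PBS mouse 2 the accumbens values were -0.91 for Penk and Pnoc and 0.49 for Penk and Pdyn.

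The members lie on 6 chromosomes (GRCm38). Oprm1 is at chr10:6758506-7038198, Oprd1 at chr4:132110726-132144486, Oprk1 at chr1:5588466-5606131 and Oprl1 at chr2:181715016-181720985. Penk is at chr4:4133531-4138819, Pdyn at chr2:129686565-129699844, Pnoc at chr14:65400673-65425472 and Pomc at chr12:3954951-3960642. Counts cover the exons of each gene, and their transcripts were not told apart.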

How the data were processed

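Libraries were made from RNA of RIN 8 or above with a directional kit and sequenced as paired ends on an Illumina HiSeq. Per the study's methods and the submitters' processing notes, reads were trimmed with Trimmomatic 0.36, aligned to GRCm38 and counted per gene with STAR 2.4.2a, and scaled with DESeq2. The annotation release and the strand setting of the counting were not given in the sources used here. The deposited values are a signal, read counts divided by size factors, set separately in each of 8 tables of 2 groups. All values of each library column were whole multiples of 1 read (tolerance 0.01), so the reads were recovered, and they were the same in both tables of the 22 libraries that stand in 2 tables.

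Each comparison was fitted with limma 3.58.1 (trended eBayes) on log2(value + 1), over genes with a mean of at least 10, with Benjamini-Hochberg adjustment over all genes tested and a threshold of 0.05. Fold changes are on the log2(value + 1) scale and understate those of low genes. Interactions and regions were fitted on reads scaled together over the libraries used, with the mouse as a block for regions, since the labels give both punches of a mouse the same number. Exon lengths and positions are from GENCODE (GRCm38). Alternatives were a pseudocount of 10, no filter, TMM scaling, edgeR 4.0.16 quasi-likelihood and DESeq2 1.42.0 on recovered reads, leaving out each library and, where numbers allowed, a replicate block. The tests of the region dependence of the morphine difference were added after seeing the data. Scripts were tested on simulated data. Libraries of a group carry separate mouse numbers, and p-values measure the spread between them. Depth limits Pomc most.

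Members and gene lists were chosen with earlier results of these data known. All 8 members are named. For each list, at most 2 genes with the largest change past the threshold are named, and for each member of mean 50 or more, the 3 genes of highest r. Of 17 marker lists read, those with most calls after morphine are given, and the rest by their number of calls.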

Additional observations from a re-analysis of the deposited data

Results flagged for a closer look

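The morphine difference of 2 precursors depended on the region in wild-type mice, by the test of that difference over both punches of the same mice (limma). It was -1.18 for Penk and -3.52 for Pdyn on the log2 scale, accumbens minus VTA. Both lists of markers given beside these genes, medium spiny neurons in the accumbens and hypothalamic and mammillary cells in the VTA, differed between the same groups, and their part was not tested.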

How the results depend on the processing

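Of 93 member results, 47 kept their direction and their side of the threshold under every alternative run. The number of members called moved in 6 comparisons, in 4 of them by over 1.5 times, and the causes were not tested. It was 4 without the filter and 4 to 6 when 1 library was left out in the Vdr-/- accumbens after morphine (5 in the report), and 7 without the filter and 6 to 7 when 1 mouse was left out for the region difference (6 in the report). After morphine in the wild-type accumbens it was 2 with DESeq2 and 0 to 2 when 1 library was left out. By genotype in the PBS VTA it was 1 with DESeq2 and 0 to 1 when 1 library was left out. After morphine in the wild-type VTA it was 0 to 5 when 1 morphine library was left out. For the region dependence in Vdr-/- mice it was 1 with a pseudocount of 10, 2 with DESeq2 (Penk and Oprk1), and 0 to 1 when 1 mouse was left out, being 1 without wild-type morphine mouse 1.1, wild-type PBS mouse 2 or Vdr-/- PBS mouse 8. Both genotype comparisons after morphine called 0 members with a replicate block on the digit after the point of the mouse number, and the region difference called 6 without the mouse as a block. No paired analysis was made of the PBS or morphine comparisons, whose groups share no mouse numbers.

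Few differences reversed without leaving out a library, all of them small: Pnoc by genotype in the PBS VTA (0.086 with edgeR, 0.070 with DESeq2), Oprl1 after morphine in the Vdr-/- VTA (0.024 with all 3 libraries) and the VTA interaction of Oprd1 (-0.073 with the libraries of the deposited tables only). Log2 differences whose sign depended on 1 library are given by their lowest and highest values. By genotype in the PBS accumbens these were Oprm1 (-0.16 to 1.88), Oprd1 (-0.093 to 0.060), Oprl1 (-0.034 to 0.18) and Pdyn (-0.24 to 0.19), and after morphine Oprk1 (-0.24 to 0.021), Oprl1 (-0.029 to 0.087) and Pdyn (-0.31 to 0.057). In the PBS VTA they were Oprd1 (-0.062 to 0.22), Oprl1 (-0.037 to 0.085), Penk (-0.11 to 0.21), Pnoc (-0.27 to 0.31) and Pomc (-0.41 to 0.054), and in the morphine VTA Oprk1 (-0.27 to 0.087). After morphine they were Oprm1 (-0.073 to 1.96) and Pdyn (-0.40 to 0.097) in the wild-type accumbens, Oprm1 (-0.23 to 0.051) in the Vdr-/- accumbens, Pomc (-0.085 to 0.19) in the wild-type VTA, and Oprm1 (-0.059 to 0.27), Oprl1 (-0.061 to 0.039), Penk (-0.15 to 0.23) and Pnoc (-0.0076 to 0.34) in the Vdr-/- VTA. For the interaction they were Oprm1 (-2.03 to 0.0041), Oprl1 (-0.15 to 0.063), Penk (-0.044 to 0.21), Pdyn (-0.34 to 0.15) and Pnoc (-0.17 to 0.32) in the accumbens, and Oprd1 (-0.061 to 0.22) and Pnoc (-0.51 to 0.068) in the VTA. Between regions it was Oprm1 (-0.12 to 0.39), and for the region dependence they were Oprm1 (-0.71 to 1.33), Oprk1 (-0.029 to 0.18) and Oprl1 (-0.13 to 0.096) in wild-type and Oprm1 (-0.48 to 0.039) in Vdr-/- mice.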
